A study of Saccharomyces cerevisiae with 15 samples.

Results

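Translation of the yeast transcription activator Gcn4 is switched on when the initiation factor eIF2 is short of GTP or of charged initiator tRNA, and 10 genes of that switch were followed here in the transcriptome of a budding yeast mutant with a defect in RNA polymerase III (Pol III) assembly. They were taken by name: GCN4 itself (YEL009C, chromosome V), the kinase gene GCN2 (YDR283C, IV) and its activators GCN1 (YGL195W, VII) and GCN20 (YFR009W, VI), the 5 genes of the eIF2B complex, GCN3 (YKR026C, XI), GCD7 (YLR291C, XII), GCD2 (YGR083C, VII), GCD1 (YOR260W, XV) and GCD6 (YDR211W, IV), and GCD11 (YER025W, V), which encodes the gamma subunit of eIF2. The deposited table counted reads on 6600 genes, and all 10 were among the 5851 genes with enough reads to be tested.

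The study asked how a defect in Pol III assembly, and its suppression by extra copies of RBS1 or PRT1, changes the mRNAs made by Pol II. Every strain was derived from the same haploid mutant, which carries the rpc128-1007 allele of the gene for the second largest Pol III subunit together with SUP11, ade2-1, lys2-1 and mutated ura3, leu2 and his3, and the strains differed in their plasmids. The strain written [PRT1] carried PRT1, which encodes a subunit of the initiation factor eIF3, on a 2-micron plasmid whose insert also holds the 3′ part of PRE10. The strain written [RBS1] carried RBS1, which encodes an RNA-binding protein, on a 2-micron LEU2 plasmid, and [RBS1-R3H] carried on the same vector an RBS1 allele with an inactive R3H domain. The strain written rpc128-1007 had an empty vector, whose marker the methods do not name. The control written wt was the same mutant complemented by native RPC128 on a centromeric URA3 plasmid, so wt also kept the mutant allele on its chromosome. Cultures grew overnight in medium without uracil or without leucine, which selects for the plasmid. They then grew, untreated and without selection, to log phase in rich glucose medium. Each of the 5 strains gave 3 libraries, described as biological replicates. Poly(A) RNA was sequenced, so these libraries do not measure the tRNAs that Pol III makes, nor proteins. The study measured tRNAs and a GCN4-lacZ reporter of Gcn4 translation in separate assays, which are not used here.

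As background, the GCN4 transcript has a leader with short upstream reading frames that keep ribosomes from the Gcn4 reading frame when eIF2 is plentiful. Gcn2 phosphorylates eIF2 when uncharged tRNA builds up, with the help of Gcn1 and Gcn20 on the ribosome, and phosphorylated eIF2 then inhibits eIF2B, the factor that reloads eIF2 with GTP. Ribosomes short of active eIF2 more often scan past the last of these upstream reading frames, which is inhibitory, and translate GCN4. The Gcn4 protein activates genes of amino acid biosynthesis, so the level of GCN4 mRNA is only part of the level of Gcn4 activity. A shortage of initiator tRNA can also relieve the block without Gcn2.

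Gcn4 binds as a dimer to the sequence TGACTCA, whose other strand reads TGAGTCA. The 500 bases before the start codon were searched for either form in the R64 reference genome. None of the 10 genes held one in its window. These windows include leader sequence, and leader lengths were not looked up, so a window may lie wholly within a long leader. A missing match says only that these letters are not there. Of a list of 18 known Gcn4 target genes 14 held one (77.8%), against 240 of 6002 protein-coding genes (4.0%). The windows printed here are those of the target genes with the largest changes described below and of CAN1, the arginine permease gene, whose mRNA was among those most like GCN4. Each is written on the strand of its gene in lower case, with the site in capitals.
ARG1, chrXV:218858-218880: ttttttagTGACTCAtgtcgcat
ARG3, chrX:268477-268499: tcacgtcgTGACTCAtatgcttt
LEU4, chrXIV:426841-426863: cgtgtaagTGACTCAgttctttc
SNO1, chrXIII:458146-458168: ttgtcggcTGAGTCAttatgtca
CAN1, chrV:33807-33829: tttccgggTGAGTCAtacggctt
SNO1 shares its sites with the divergent gene SNZ1. The reads had been mapped to another assembly, EF4, and the counts carry no coordinates, so positions are given for R64 only.

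Libraries held between 7365923 and 12164321 counts (median 9449052), and between replicates the chi-square per gene was 8.97 to 63.6, far above counting error. It differed between strains, from 8.97 to 13.6 for the pairs of wt to 33.4 to 63.6 for those of rpc128-1007. Levels are given in CPM, which are counts scaled to a common library size, as mean ± SD of 3 libraries. PRT1 stood at 4818 ± 324 CPM in [PRT1] and at 632 ± 79.4 CPM in rpc128-1007. RBS1 stood at 4410 ± 180 CPM in [RBS1], at 2986 ± 833 CPM in [RBS1-R3H] and at 100.3 ± 31.2 CPM in rpc128-1007. RET1, which is RPC128, stood at 448 ± 21.6 CPM in wt, where the plasmid adds a copy, and between 198 and 254 CPM in the other strains. These levels matched the labels, but they cannot tell [RBS1] from [RBS1-R3H]. URA3 stood at 2120 CPM in rpc128-1007, 971 in [PRT1] and 738 in wt, against 197 in [RBS1] and 207 in [RBS1-R3H]. LEU2 stood at 2395 and 3760 CPM in [RBS1] and [RBS1-R3H], and between 370 and 790 in the others. Between [RBS1] or [RBS1-R3H] and those others, the insert therefore cannot be told apart from the marker and any difference in overnight medium. In replicate 2 of rpc128-1007 and of [RBS1] long genes ran high, with a Spearman correlation across genes of 0.559 and 0.501 between gene length and the deviation from the strain's mean. Genes of whole chromosomes also moved together. Chromosome XI ran high in rpc128-1007, chromosomes I and VIII ran somewhat high there, and chromosome VIII ran high in [PRT1], where its genes had a median log2 fold change of 0.97 against wt and most were called higher. Over the 9 comparisons the medians of the 13 other chromosomes lay between -0.08 and 0.06. GCN3 is on chromosome XI, and none of the 10 genes is on I or VIII.

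A gene is called where the edgeR quasi-likelihood test, fitted over all 15 libraries, gave an adjusted p under 0.05 over the 5851 genes. Over 9 comparisons the 10 genes gave 90 tests and 14 calls, of which 7 were of GCN4, 4 of GCN3 and 3 of other members, while 6 of the 10 genes were called in no comparison of this fit. GCN4 and GCN3 were called higher in rpc128-1007 than in wt, where 18.4% of all tested genes were called. Against rpc128-1007, 2 members were called for [PRT1] (GCN4 and GCN3, against 21.8% of all tested genes), 2 for [RBS1] (GCN3 and GCD1, against 29.7%) and 2 for [RBS1-R3H] (GCN4 and GCN3, against 11.5%). Against wt, no member was called in [PRT1] (1, GCN20, had an unadjusted p under 0.05, and DESeq2 and limma-voom called 0; 12.0% of all tested genes were called), and GCN4 alone was called in [RBS1] (10.8%) and in [RBS1-R3H] (22.9%). GCN4 and GCN20 were called between [PRT1] and [RBS1] (16.3%) and between [RBS1] and [RBS1-R3H] (27.9%). A share of 0% to 20% of the members was thus called per comparison, close to the share of all genes, so the counts say nothing particular of the members as a set. Libraries of the strains compared did not overlap for 5 members in rpc128-1007 against wt (34.2% of all tested genes), and, against rpc128-1007, for 3 with PRT1 (33.8%), for 3 with RBS1 (38.3%) and for 3 with RBS1-R3H (23.9%). Against wt, they did not overlap for 2 with PRT1 (35.1%), for 1 with RBS1 (33.6%) and for 6 with RBS1-R3H (44.1%). Between [PRT1] and [RBS1] they did not overlap for 3 members (32.7%), and between [RBS1] and [RBS1-R3H] for 3 (42.6%). The median of their absolute log2 fold changes was 0.09 in rpc128-1007 against wt, where that of all tested genes was 0.18.

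**Figure D1:**
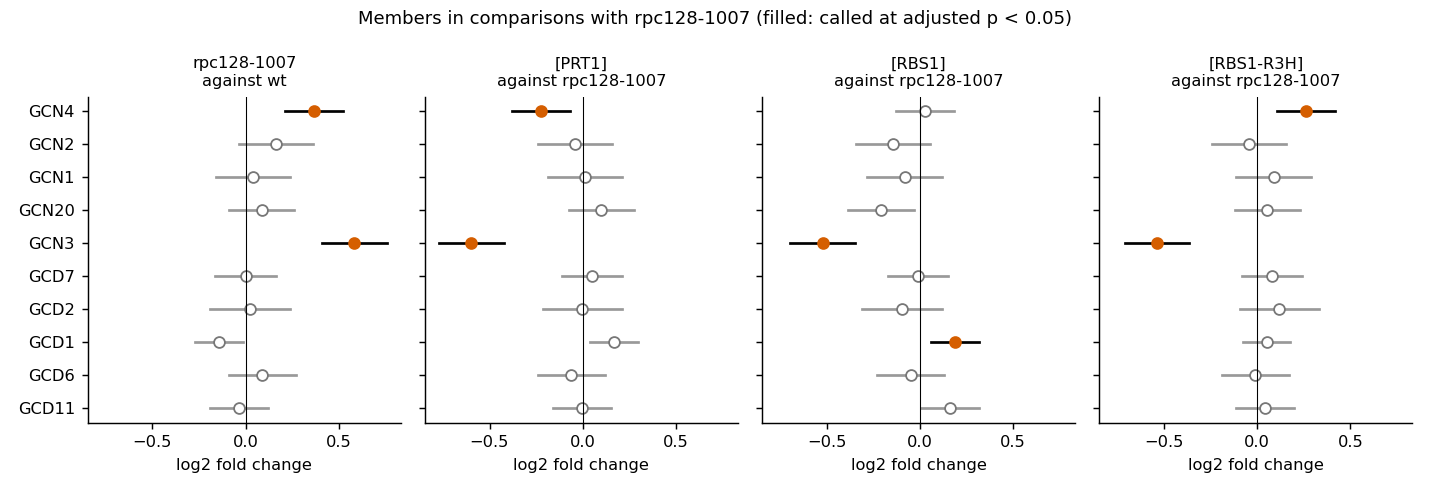
Log2 fold change (x axis) of each of the 10 genes (rows) in the comparisons with rpc128-1007, with its 95% interval; filled points passed an adjusted p of 0.05. GCN3 stands apart in every panel, by 0.58 in rpc128-1007 against wt and by -0.60 to -0.52 in the plasmid strains against rpc128-1007; GCN4 passed in 3 panels and GCD1 in 1.

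GCN4 mRNA, the transcript whose translation the switch controls, was least abundant in wt and most abundant in [RBS1-R3H]. Replicates 1, 2 and 3 gave 1072.5, 1206.3 and 1219.9 CPM in [PRT1], 1378.0, 1296.4 and 1491.3 CPM in [RBS1] and 1593.1, 1698.2 and 1610.9 CPM in [RBS1-R3H]. They gave 1445.6, 1308.6 and 1332.2 CPM in rpc128-1007, against 1034.6, 1075.3 and 1061.5 CPM in wt. All libraries of [RBS1-R3H] lay above all others, those of [RBS1] and rpc128-1007 overlapped each other, and those of [PRT1] lay below both of these and overlapped wt only in replicate 1. Each library was made from a whole culture, so a change in every cell and a larger change in some cells cannot be told apart, here and for the genes that follow.

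Against wt, GCN4 was 1.55-fold higher in [RBS1-R3H] (log2 fold change 0.63, SE 0.07, adjusted p = 1.83e-05), 1.31-fold higher in [RBS1] (0.39, SE 0.07, adjusted p = 0.00451) and 1.29-fold higher in rpc128-1007 (0.37, SE 0.07, adjusted p = 0.00281). Each of these 3 calls held under every alternative run for it. In [PRT1] the difference from wt was not called, at a log2 fold change of 0.14 with a 95% interval of -0.01 to 0.30 (adjusted p = 0.230). These comparisons share the wt libraries.

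The steps between neighbouring strains in this order were smaller. [RBS1] and rpc128-1007 differed by 0.03 on the log2 scale (95% interval -0.13 to 0.18, adjusted p = 0.818), so a return of GCN4 mRNA toward the wt level was not detected with RBS1. GCN4 was lower in [PRT1] than in rpc128-1007 (log2 fold change -0.22, SE 0.07, adjusted p = 0.0387) and than in [RBS1] (-0.25, SE 0.07, adjusted p = 0.0276). It was higher in [RBS1-R3H] than in rpc128-1007 (0.26, SE 0.07, adjusted p = 0.0309) and lower in [RBS1] than in [RBS1-R3H] (-0.23, SE 0.07, adjusted p = 0.0260). These 4 calls are near the threshold and each was lost under 5 to 9 of its 16 alternatives, where adjusted p values reached 0.131 to 0.224, without a change of sign. With both libraries that carry the length trend left out, the 2 calls that involve [RBS1-R3H] here were lost, at 0.23 against rpc128-1007 (adjusted p = 0.0660) and -0.19 in [RBS1] against [RBS1-R3H] (adjusted p = 0.0845). With the trend removed from all libraries instead, both held, at 0.29 (adjusted p = 0.0106) and -0.29 (adjusted p = 0.00515).

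**Figure D2:**
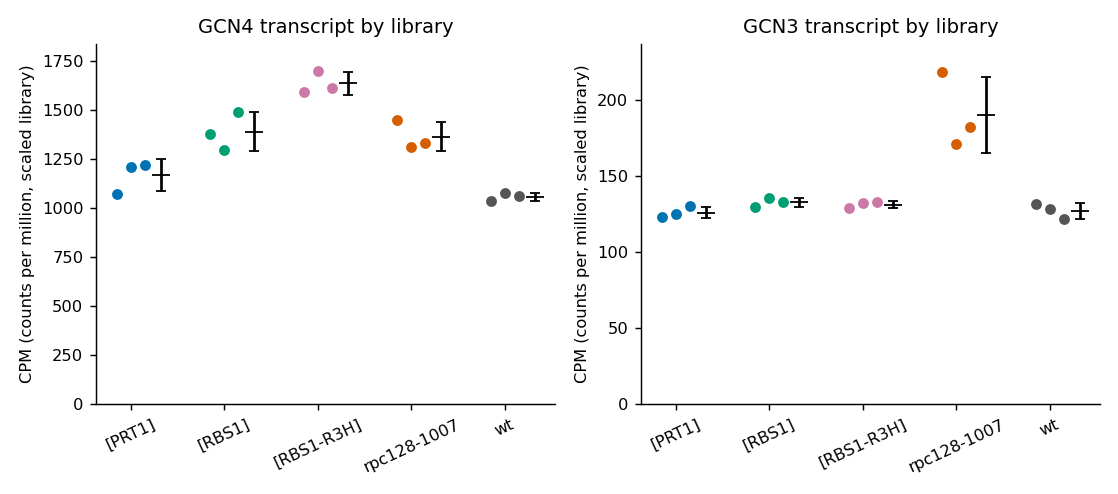
Level in CPM (y axis) of GCN4 (left) and GCN3 (right) in each library of the 5 strains (x axis); points are libraries in the order of replicates 1 to 3 and bars the mean ± SD. For GCN4 the [RBS1-R3H] libraries are highest and wt lowest; for GCN3 the 3 rpc128-1007 libraries (170 to 218) stand above the 12 others (121 to 135).

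The genes that Gcn4 activates moved over a much wider range than its mRNA. The list of 18 targets holds genes of histidine, arginine, tryptophan, lysine, isoleucine, leucine and aromatic amino acid synthesis and of vitamin B6 and NAD synthesis. It was written with earlier results of these libraries known, so its direction is no independent evidence. Against wt, 18 of 18 were called higher in [RBS1-R3H], where 13.4% of all tested genes were, and the median of their log2 fold changes was 2.49 (-0.02 over all tested genes). In rpc128-1007, 18 of 18 were called higher (12.7% of all tested genes), at a median of 1.71 (0.01). ARG4 is on chromosome VIII and TRP3 on chromosome XI, which ran high there. Without these genes 16 targets were called higher, also at a median of 1.71. In [RBS1], 2 of 18 were called higher (6.53%), at a median of 0.53 (0.00). In [PRT1] no target was called by edgeR against wt (8 had an unadjusted p under 0.05, and the lowest adjusted p was 0.0632). The median of the targets was -0.33 (0.00), and also -0.33 without ARG4 and TRP3. Set side by side, [RBS1] and rpc128-1007 held GCN4 mRNA at 1389 ± 97.9 and 1362 ± 73.3 CPM, while all 18 targets were called lower in [RBS1] than in rpc128-1007 (17.1% of all tested genes), at a median of -1.40 on the log2 scale. All 18 were also called lower in [PRT1] than in rpc128-1007 (13.7% of all tested genes, median of the targets -2.04), and 15 were called higher in [RBS1-R3H] (4.67%, median 0.76).

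Of these targets, ARG1 of arginine synthesis had the largest change against wt in [RBS1-R3H], with 2899 ± 477 CPM in [RBS1-R3H] and 183 ± 109 CPM in wt. SNO1, of vitamin B6 synthesis, changed most in rpc128-1007, with 144 ± 41.4 CPM in rpc128-1007 and 19.6 ± 4.79 CPM in wt. ARG3, also of arginine synthesis, stood at 13.8 ± 3.52 CPM in [PRT1] and at 170 ± 60.7 CPM in rpc128-1007. LEU4, of leucine synthesis, stood at 316 ± 31.6 CPM in [RBS1] and at 1293 ± 268 CPM in rpc128-1007. In each of these pairs the libraries did not overlap. The fold change of GCN4 mRNA against wt was smaller than the median target's in rpc128-1007 and [RBS1-R3H], by the values above, and the difference itself was not tested.

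**Figure D3:**
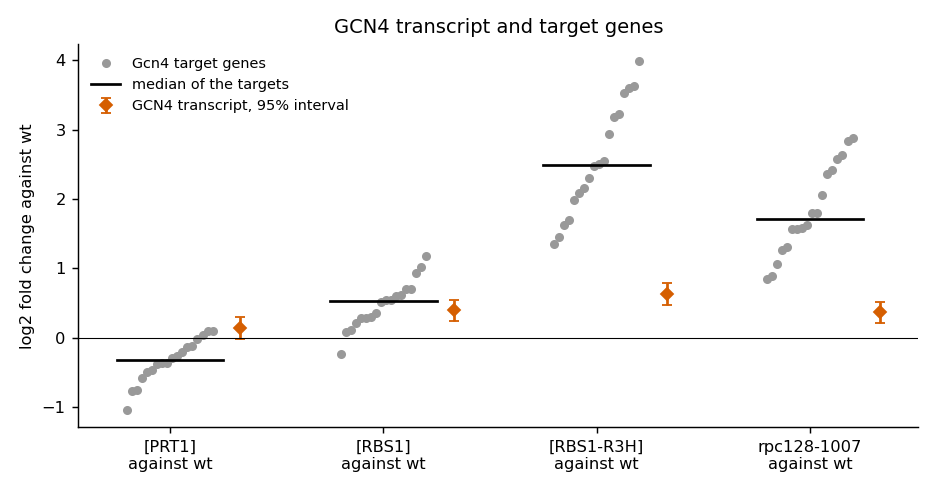
Log2 fold change against wt (y axis) of the 18 Gcn4 target genes (grey points, ordered by value, with a line at their median) and of the GCN4 transcript (diamond, with its 95% interval) in each strain (x axis). The medians of the targets are -0.33, 0.53, 2.49 and 1.71 in [PRT1], [RBS1], [RBS1-R3H] and rpc128-1007, where GCN4 itself stands at 0.14, 0.39, 0.63 and 0.37.

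PCL5, the cyclin that directs the kinase Pho85 to mark Gcn4 for degradation and whose gene is itself a Gcn4 target, was the most changed of the 8 genes listed for Gcn4 turnover in every comparison with rpc128-1007 or wt. It stood at 247 ± 5.17 CPM in [PRT1], 226 ± 9.15 in [RBS1], 1053 ± 95.6 in [RBS1-R3H], 636 ± 84.9 in rpc128-1007 and 165 ± 31.6 in wt. Its log2 fold change was 1.94 in rpc128-1007 against wt (SE 0.13, adjusted p = 1.26e-06) and 2.67 in [RBS1-R3H] against wt (SE 0.13, adjusted p = 1.63e-08). In [PRT1] against wt PCL5 rose by 0.58 (SE 0.12, adjusted p = 0.00701), and PCL5 is on chromosome VIII, whose median rose by 0.97 in that comparison. The part of the chromosome in the PCL5 value was not tested.

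GCN3, which encodes the alpha subunit of eIF2B, the subunit that senses phosphorylated eIF2 and is dispensable for growth, had the largest change of the members in rpc128-1007 against wt. Replicates 1, 2 and 3 gave 218.2, 170.5 and 181.7 CPM in rpc128-1007, against 131.2, 128.4 and 121.4 CPM in wt. The plasmid strains had 122.8, 124.6 and 129.8 CPM in [PRT1], 129.2, 135.4 and 133.0 CPM in [RBS1] and 128.5, 131.9 and 132.7 CPM in [RBS1-R3H]. The 3 libraries of rpc128-1007 thus lay above the 12 others, and the other strains overlapped wt.

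GCN3 was higher in rpc128-1007 than in wt (log2 fold change 0.58, SE 0.08, adjusted p = 1.89e-04). Against rpc128-1007 it was lower in every plasmid strain, with a log2 fold change of -0.60 in [PRT1] (SE 0.08, adjusted p = 9.22e-05), of -0.52 in [RBS1] (SE 0.08, adjusted p = 3.42e-04) and of -0.54 in [RBS1-R3H] (SE 0.08, adjusted p = 0.00127). These 4 comparisons share the rpc128-1007 libraries. Against wt, the log2 fold change was -0.01 in [PRT1] (95% interval -0.19 to 0.16), 0.06 in [RBS1] (-0.11 to 0.24) and 0.04 in [RBS1-R3H] (-0.13 to 0.22), none of them called. [RBS1] and [RBS1-R3H], which differ in whether the R3H domain is active, differed by 0.02 (95% interval -0.16 to 0.19).

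GCN3 moved together with the chromosome it lies on. The 309 tested genes of chromosome XI had a median log2 fold change of 0.56 in rpc128-1007 against wt, with 299 of them above 0 and 218 called higher. GCN3, at 0.58, lay inside the quartiles of the chromosome, 0.40 and 0.70, and 149 of the genes lay above it. The order of the libraries was also the chromosome's own. Set against the mean of wt, the chromosome XI median was 0.82, 0.36 and 0.49 in replicates 1, 2 and 3 of rpc128-1007, where GCN3 was 0.78, 0.43 and 0.52. In the 12 other libraries the chromosome median lay between -0.04 and 0.04.

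**Figure D4:**
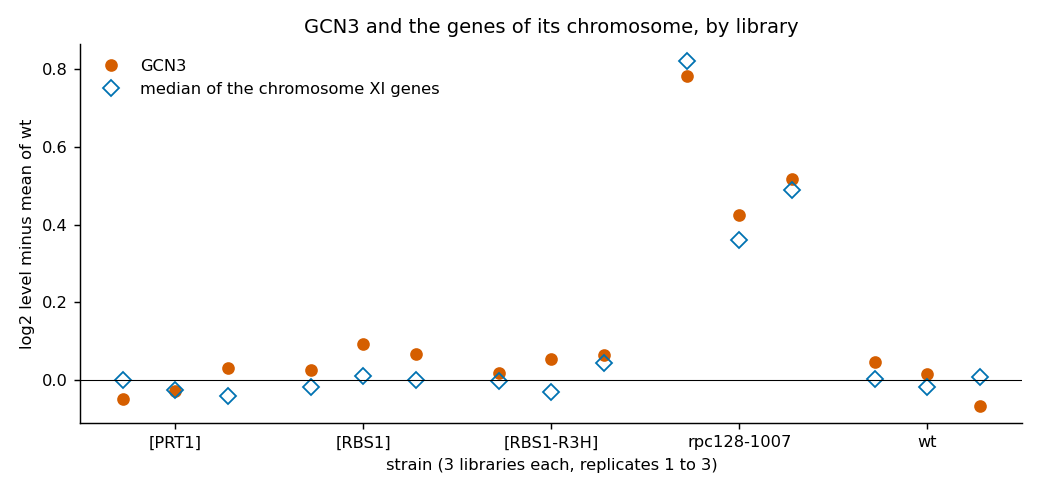
Level of GCN3 (filled) and median of the 309 tested genes of chromosome XI (open), each as log2 level minus the mean of wt (y axis), in the 3 libraries of each strain (x axis). In the rpc128-1007 libraries both stand at 0.36 to 0.82 and in the same order, and in the 12 other libraries the chromosome median stays within -0.04 to 0.04.

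With the chromosome median of its library taken off, GCN3 stood at 0.02 ± 0.05 in rpc128-1007 and at 0.00 ± 0.07 in wt (SD, n = 3 each), and at 0.01 ± 0.06, 0.06 ± 0.02 and 0.04 ± 0.04 in [PRT1], [RBS1] and [RBS1-R3H]. In a refit that removed the chromosome medians, added once the data had been seen, no comparison called GCN3 (adjusted p 0.498 to 0.992), and rpc128-1007 against wt gave 0.03 (SE 0.06, adjusted p = 0.799). The chromosomes of the other members had medians of -0.03 to 0.00 in rpc128-1007 against wt, and the GCN4 value there was 0.37 in the same refit (adjusted p = 0.00222). The number of copies of chromosome XI in these cultures was not measured. The plasmid strains [PRT1], [RBS1] and [RBS1-R3H] carry the same rpc128-1007 allele, and their chromosome XI medians lay between -0.04 and 0.04. What set the empty-vector cultures apart was not tested, and the empty vector cannot be told apart from whatever else those cultures shared.

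Other genes of chromosome XI carried the same pattern. The convergent neighbour RPC37, itself a Pol III subunit gene, ends 119 bases from GCN3 without overlapping it, and stood at 177 ± 34.1 CPM in rpc128-1007 and at 114 ± 14.1 CPM in wt. Over the 15 libraries, all 50 genes most like GCN3 by Pearson r of log2 levels were on chromosome XI, a list drawn after the values were seen. The closest was the phosphoinositide phosphatase gene SAC1 (r = 0.972, rho = 0.650), with 365 CPM in rpc128-1007 and 248 CPM in wt. These correlations run over libraries that fall into strains and are given as a description.

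The 4 other eIF2B genes stayed close to their wt levels in every strain. GCD7 and GCD2 encode the other regulatory subunits, beta and delta, and GCD1 and GCD6 the catalytic subunits, gamma and epsilon. GCD7 ranged between 148 and 179 CPM over all libraries, GCD2 between 158 and 211, GCD1 between 226 and 273 and GCD6 between 192 and 237. Strain means differed by at most 1.16-fold in any of these genes. In 36 tests 1 was called, with log2 fold changes between -0.22 and 0.19, and every 95% interval lay within -0.43 and 0.36. The value of -0.22 was that of GCD2, which had 158.0, 198.6 and 161.0 CPM in [RBS1], against 190.2, 210.7 and 200.1 CPM in [RBS1-R3H], with the higher [RBS1] library, replicate 2, inside the range of [RBS1-R3H]. It was not called (adjusted p = 0.124), but was with the replicate number as a block, which pairs these libraries (-0.22, adjusted p = 0.0462), and without replicate 2 of [RBS1] (-0.33, adjusted p = 0.0209).

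The called test was GCD1 in [RBS1] against rpc128-1007. GCD1 had 253.9, 273.5 and 257.4 CPM in [RBS1] and 231.1, 231.8 and 226.1 CPM in rpc128-1007, and the libraries of these strains did not overlap. The difference was 0.19 on the log2 scale (SE 0.06, adjusted p = 0.0289), and 6 of 16 alternatives lost it. The difference was similar in [PRT1], where GCD1 had 256.4, 254.5 and 262.0 CPM, also without overlap with rpc128-1007. There it was 0.17 (SE 0.06, adjusted p = 0.0639), short of the threshold, and 5 alternatives called it, DESeq2 among them (adjusted p = 0.0159). GCD1 was also lower in rpc128-1007 than in wt, at 230 ± 3.13 and 253 ± 13.3 CPM, without overlap and without passing the test (log2 fold change -0.14, 95% interval -0.27 to -0.01, adjusted p = 0.121), although 3 alternatives, DESeq2 among them, called it. GCD1 lies between the proteasome genes RPT4 and RPN8, 275 and 194 bases away and without overlap. RPN8 stood at 273 ± 16.8 CPM in [RBS1], 198 ± 20.0 in rpc128-1007 and 279 ± 27.4 in wt, and RPT4 at 362 ± 6.15, 294 ± 28.4 and 402 ± 33.9 in the same strains. These neighbours were named after their values were seen, and whether any reads were shared with them was not tested.

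Per kilobase of coding length, which allows levels of different genes to be compared, the eIF2B genes were close to each other. In wt, GCD1 stood at 146 ± 7.66 CPM per kb, GCD7 at 140 ± 6.07, GCN3 at 138 ± 5.53, GCD6 at 96.9 ± 1.25 and GCD2 at 92.7 ± 4.79. The first 3 lay within their spread of each other, as did GCD6 and GCD2. In rpc128-1007, GCN3 rose to 207 ± 27.2 CPM per kb, against 138 ± 5.53 in wt, and stood above every other subunit gene. GCN3 made up 30.6 ± 3.52% of the summed level of the 5 genes in rpc128-1007, against 22.5 ± 0.24% in wt and 22.0% to 23.3% in the plasmid strains. The sum of the 4 other genes was 469 ± 20.6 CPM per kb in rpc128-1007 and 475 ± 16.7 in wt. With 3 libraries against 3, an exact permutation test of such a share cannot go below p = 0.1, so none was run.

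**Figure D5:**
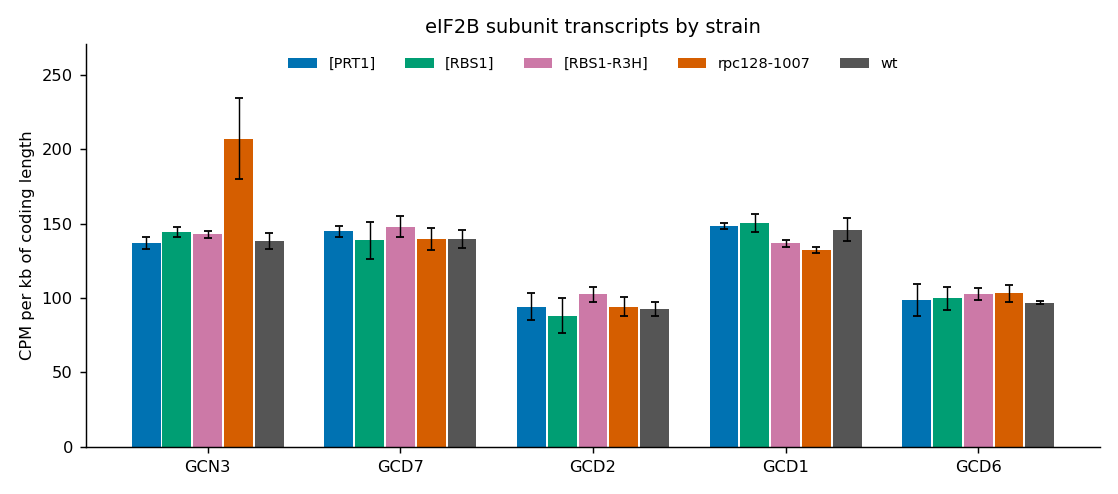
Level of the 5 eIF2B subunit genes (x axis) in CPM per kilobase of coding length (y axis, from 0) in each strain; bars are means of 3 libraries and lines the SD. GCN3 in rpc128-1007, at 207, is the only bar above 160; GCN3 in the other strains lies between 137 and 144.

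The sensor arm showed no call against wt or rpc128-1007. GCN2, the kinase gene, was the least abundant member, with 43.8 to 55.4 CPM over all libraries. Its libraries had 51.3, 55.4 and 47.5 CPM in rpc128-1007, against 44.3, 47.2 and 46.2 CPM in wt, all higher in rpc128-1007, but not called (log2 fold change 0.16, 95% interval -0.04 to 0.36, adjusted p = 0.251). GCN1, which encodes the large ribosome-bound activator of Gcn2, had 250 to 324 CPM, and its intervals against wt lay within -0.24 and 0.33. At 8019 bases it is the longest member, and it was high in the 2 libraries with the length trend, at 324.3 CPM in replicate 2 of rpc128-1007 (257.2 and 283.4 in the others) and 311.4 CPM in replicate 2 of [RBS1] (256.0 and 250.2). Left out together, these libraries gave GCN1 a call in [RBS1] against [RBS1-R3H].

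GCN20, the ABC-family partner of Gcn1, was lowest in [RBS1]. Its libraries had 202.8, 191.6 and 192.3 CPM in [PRT1], 154.5, 176.8 and 142.7 in [RBS1], 194.3, 191.4 and 182.9 in [RBS1-R3H], 178.5, 198.9 and 169.9 in rpc128-1007 and 172.8, 176.0 and 167.0 in wt. [RBS1] lay below [PRT1] and [RBS1-R3H] without overlap and overlapped wt and rpc128-1007. GCN20 was higher in [PRT1] than in [RBS1] (log2 fold change 0.31, SE 0.08, adjusted p = 0.0182) and lower in [RBS1] than in [RBS1-R3H] (-0.26, SE 0.08, adjusted p = 0.0278), and 4 and 6 of 16 alternatives lost these calls. In [RBS1] against rpc128-1007 it was at -0.21 (95% interval -0.38 to -0.03, adjusted p = 0.0715). With the replicate number as a block, which pairs these libraries, 4 members were called in that comparison in place of 2, with GCN20 (-0.21, adjusted p = 0.0242) and GCD11 (0.16, adjusted p = 0.0152) added. The block also called 37.9% of all tested genes there, in place of 29.7%, so the count of members stayed near the background. Without replicate 2 of [RBS1], GCN20 was also called there (-0.30, adjusted p = 0.0150).

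GCD11, the gene of the eIF2 gamma subunit, which binds GTP and the initiator tRNA, was the second most abundant member per length. It had 581.3, 603.0 and 550.1 CPM in [RBS1], against 516.9, 546.2 and 488.8 CPM in rpc128-1007, without overlap. This gave 0.16 on the log2 scale and missed the threshold (95% interval 0.01 to 0.32, adjusted p = 0.113). Over all libraries its values lay between 489 and 603 CPM, and no comparison called it in this fit. In [RBS1] against rpc128-1007, 3 of 16 alternatives called GCD11. These were library totals (0.25, adjusted p = 0.00903), removal of the length trend (0.20, adjusted p = 0.0318) and the replicate block (0.16, adjusted p = 0.0152). Its log2 fold change in [PRT1] against [RBS1] was -0.17 (adjusted p = 0.146), which library totals (-0.22, adjusted p = 0.0283) and the replicate block (adjusted p = 0.0206) called, and library totals also called it in [RBS1] against [RBS1-R3H] (0.25, adjusted p = 0.00989). From a list of 6 genes for the other eIF2 subunits and partner factors, 2 were called in [RBS1] against rpc128-1007 (29.7% of all tested genes) and 2 in [RBS1] against [RBS1-R3H] (27.9%), all higher in [RBS1]. The larger against rpc128-1007 was TIF11, which encodes eIF1A (log2 fold change 0.21, SE 0.07, adjusted p = 0.0370).

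Between genes, levels per length spanned a wide range. The median over 15 libraries was 1547 CPM per kb for GCN4, 342 for GCD11, 144 for GCD7, 143 for GCN3, 142 for GCD1, 99.4 for GCD6, 97.2 for GCD2, 79.0 for GCN20, 35.4 for GCN1 and 9.53 for GCN2. In wt, GCN4 stood 136-fold above GCN2. By these medians over 15 libraries, the transcripts of the sensor proteins were all below those of eIF2B, and eIF2B below eIF2 gamma. The ranges over single libraries overlapped for GCN20, which reached 89.8 CPM per kb, and GCD2, which fell to 80.8.

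Of 9 regulators of Gcn2, 4 were called in [RBS1] against [RBS1-R3H] (27.9% of all tested genes), 3 in [PRT1] against rpc128-1007 (21.8%) and 3 in [RBS1] against rpc128-1007 (29.7%). In [RBS1-R3H] against wt 2 were called (22.9%), and 1 was called in rpc128-1007 against wt (18.4%), namely RBG1, whose product is a ribosome-associated GTPase (log2 fold change 0.32, SE 0.08, adjusted p = 0.0150), a gene of chromosome I, whose median was 0.19 there. YIH1, which encodes an inhibitor of Gcn2 that competes for Gcn1, was higher in [RBS1-R3H] than in wt, at 146 ± 8.15 and 107 ± 0.50 CPM (log2 fold change 0.44, SE 0.07, adjusted p = 1.98e-04). RBG2, which encodes another such GTPase, was higher in [RBS1] than in rpc128-1007 (log2 fold change 0.37, SE 0.08, adjusted p = 0.00500), beside 2 regulators called lower.

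Of 4 genes that modify or charge the initiator tRNA, the only call against wt or rpc128-1007 was the methionyl-tRNA synthetase gene MES1. It was higher in [RBS1-R3H] than in wt (log2 fold change 0.30, SE 0.08, adjusted p = 0.0199), where 13.4% of all tested genes were called higher. Of 13 genes of Gcn4 coactivators, 2 were called higher in [RBS1-R3H] than in wt, where 13.4% of all tested genes were, so the count is near the background. The larger, SPT7, a scaffold gene of the SAGA complex, stood at 102 ± 13.4 CPM in [RBS1-R3H] and at 68.8 ± 3.50 CPM in wt (adjusted p = 0.00156). TRA1, the activator-binding subunit gene of SAGA, was the 1 coactivator called in rpc128-1007 against wt (log2 fold change 0.51, SE 0.10), in [PRT1] against wt (1.08, SE 0.10) and in [RBS1] against wt (0.35, SE 0.10, adjusted p = 0.0422). TRA1 is on chromosome VIII, whose median was 0.23, 0.97 and 0.02 in those comparisons. Of all tested genes 18.4%, 12.0% and 10.8% were called there. SWI1 of the chromatin remodeller SWI/SNF was the 1 coactivator called in [RBS1] against rpc128-1007 (-0.32, SE 0.11, adjusted p = 0.0366), and its libraries overlapped. There 29.7% of all tested genes were called. In [PRT1], 2 coactivators were called against rpc128-1007 (21.8% of all tested genes) and 2 against [RBS1] (16.3%). In [RBS1-R3H] against rpc128-1007 1 was called (11.5%), and 1 in [RBS1] against [RBS1-R3H] (27.9%).

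The transcripts most like GCN4 over the 15 libraries were HEM3 of heme synthesis (Pearson r = 0.943), GYP6, a GTPase activator of vesicle traffic (0.941), YCK3, a casein kinase of the vacuole (0.935), THI3 of thiamine regulation (0.918) and CAN1 (0.915). HEM3 stood at 101 CPM in [PRT1], 135 in [RBS1], 145 in [RBS1-R3H], 131 in rpc128-1007 and 97.8 in wt. CAN1, whose window is printed above, stood at 157, 180, 262, 216 and 137 CPM in the same strains. None of the 18 targets was among the 5, and the values describe libraries that fall into strains.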

How the data were processed

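RNA-seq of poly(A) RNA was made from 3 cultures of each of 5 strains. According to the methods, the authors mapped paired-end reads with TopHat2 2.0.11 to the EF4 assembly and counted them with GenomicAlignments. The counting mode and strandedness are not given in the sources used here. The authors deposited raw counts, without normalization, per gene and library, and the authors' own comparisons were not used. Strains and replicate numbers came from the labels.

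Counts were filtered with filterByExpr (minimum count 10) by strain, scaled by TMM (factors 0.932 to 1.05) and tested in R 4.3.3 with edgeR 4.0.16 (glmQLFit, glmQLFTest), 1 fit over 15 libraries, with Benjamini-Hochberg adjustment over 5851 genes, leaving out 749. SE is the log2 fold change over the root of F, and intervals are at 95%. CPM are counts relative to the TMM-scaled library size, and log2 levels used a prior count of 2. P-values measure the spread between these cultures. Names, lengths and chromosomes came from R64, which matched 5917 identifiers. The method was tested on simulated data. Replicate numbers were taken to pair libraries where all 3 correlations of deviations from strain means were above 0.1, which held in 4 of 9 comparisons (correlations 0.155 to 0.732).

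The members and the lists were chosen with earlier results of these data known. The genes named are all members, for each list the called gene with the largest change in each comparison with rpc128-1007 or wt, PCL5, the plasmid genes and the 5 genes most like GCN4. The alternatives were DESeq2 1.42.0, limma-voom (limma 3.58.1), library totals, median-ratio factors, no filter, a replicate block, fits of 2 strains, removal of the length trend (lowess span 0.3), both libraries with that trend left out, and each library left out. Removal of chromosome medians was chosen after seeing the data.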

Additional observations from a re-analysis of the deposited data

How the results depend on the processing

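The GCN4 calls against wt held under every alternative, and the GCN3 calls under all but removal of the chromosome medians. Removing those medians left 1 member called in rpc128-1007 against wt, where 13.4% of all tested genes were called. Against rpc128-1007 it left 1 for [PRT1] (13.5% of all tested genes), 1 for [RBS1] (26.1%) and 0 for [RBS1-R3H] (5.54%). It turned the sign of GCN3 in [RBS1] (0.037) and [RBS1-R3H] (0.013) against rpc128-1007 and in [PRT1] against wt (0.026), all small and not called. Fits of 2 strains left 1 member called against rpc128-1007 for [PRT1] (16.6% of all genes tested in that fit), for [RBS1] (17.5%) and for [RBS1-R3H] (3.82%). They left 0 in [PRT1] against [RBS1] (13.9%) and in [RBS1] against [RBS1-R3H] (24.2%). Of all genes, these fits called more in [PRT1] against wt (13.8%, in place of 12.0%) and in [RBS1-R3H] against wt (26.9%, in place of 22.9%). They called fewer in every other comparison. They had fewer libraries to estimate the spread, and whether this lost the calls was not tested. Median-ratio factors left 1 in [PRT1] against rpc128-1007 (21.8% of all tested genes). Without both libraries of the length trend 1 was left in [RBS1-R3H] against rpc128-1007, and the share of all genes was not taken there. Library totals gave 2 in [RBS1-R3H] against wt (29.4% of all tested genes) and a GCN3 value of -0.063 there. They moved the median of all genes by -0.11 in that comparison and by 0.13 in [RBS1] against [RBS1-R3H], where the calls of GCN4 and GCN20 were lost. The replicate block gave 4 in [RBS1] against rpc128-1007, where it called 37.9% of all tested genes, and changed no other count of members by over 1.5 times.

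With each library left out in turn, counts of members called ranged over 1 to 2 for each plasmid strain against rpc128-1007, 0 to 2 in [PRT1] against [RBS1] and 0 to 3 in [RBS1] against [RBS1-R3H]. The share of all genes called was not taken for these fits, so the counts say nothing particular of the members. The libraries that moved them were replicates 1 and 3 of rpc128-1007 and each of [PRT1] for [PRT1], replicates 2 and 3 of rpc128-1007 and 3 of [RBS1] for [RBS1], replicates 1 and 2 of [RBS1-R3H] and 2 and 3 of rpc128-1007 for [RBS1-R3H], replicates 1 and 3 of [RBS1] and 1 and 2 of [PRT1] between [PRT1] and [RBS1], and all 3 replicates of [RBS1] and 1 and 2 of [RBS1-R3H] between [RBS1] and [RBS1-R3H], where leaving out replicate 2 of [RBS1] gave the 3 (GCN1, GCN20 and GCD2, with GCN4 lost). In [RBS1] against rpc128-1007 that library left the count at 2, with GCN20 in place of GCD1. Values near 0 changed sign: GCN4 in [RBS1] against rpc128-1007 ranged over -0.026 to 0.075, and GCN3 over -0.046 to 0.011 in [PRT1] against wt and over -0.017 to 0.035 in [RBS1] against [RBS1-R3H]. GCN3 was also 0.0026 in [PRT1] against wt and -0.029 in [RBS1] against [RBS1-R3H] with the length trend removed, and -0.0051 in the comparison of [RBS1] with [RBS1-R3H] with no filter. The causes were not tested. Depth was no limit for the members, whose lowest count was 365.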

Other observations

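The chromosomes that moved with a strain hold no other member, but bear on how its genes read. In rpc128-1007 against wt, 22 of 82 tested genes of chromosome I and 90 of 280 of chromosome VIII were called higher, with median log2 fold changes of 0.19 and 0.23. By library, replicates 1, 2 and 3 of rpc128-1007 stood at 0.03, 0.28 and 0.30 on chromosome I and at 0.09, 0.29 and 0.33 on chromosome VIII, so the library with the highest chromosome XI median (0.82) had the lowest of the others. In [PRT1] the chromosome VIII median was 0.96, 0.96 and 0.97 in its 3 libraries, whereas that of chromosome XI in rpc128-1007 spread over 0.36 to 0.82. No DNA measurement was analysed here, and these values are given without an explanation.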
